A study of Rattus norvegicus with 5 samples.

Results

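A group of 217 genes stood higher in 1 library than in those of the 4 other conditions of the study. That library came from infarcted rat left ventricular wall treated with the SNAP-delivering suture. They were 217 of 20646 genes listed, and of 8778 genes that reached an FPKM of 5 in that library. FPKM is the number of fragments of a gene, divided by its length in kilobases and scaled to a fixed library total. The members were chosen by these values themselves, on the scale log2(FPKM + 1). A member reached an FPKM of 5 in the S-DTMS library, lay at least 1 above each of the Normal, MI, SNAP and DTMS libraries, and differed by less than 1 in SNAP above MI. A step of 1 on this scale is a doubling, somewhat more than that for genes with low values. The height of S-DTMS over the other libraries is therefore a description of what was chosen, and no test of it was made.

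The hearts came from male SD rats aged 7-8 weeks in 5 groups, with 1 library each. Normal hearts were not infarcted, MI hearts were infarcted and left untreated, and SNAP hearts received the drug after infarction without a suture. DTMS hearts were sewn with a microchanneled suture of polyvinyl alcohol hydrogel and conductive polypyrrole, and S-DTMS hearts had this suture together with SNAP, which a small pump delivered through its channel. The sample label of the last group is spelled S-DTNS. The labels place the sampling at 1 month, whereas the study's methods place it a week after therapy. The study describes biologically independent replicates for this sequencing, whereas each group has 1 column of values, and whether that column is a single rat or merges several is not stated in the sources used here. With 1 library per group a difference has no replicate check, and the treatment, the rat and the piece of tissue cannot be told apart. In bulk tissue, fewer cells of a type and less RNA per cell also cannot be told apart.

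SNAP is a donor of nitric oxide, a gas that endothelial cells release and that activates soluble guanylate cyclase in nearby muscle cells. The cyclic GMP formed there switches on a protein kinase that relaxes vessels, and nitric oxide also acts on endothelial growth and on the adhesion of leukocytes. After an infarct, heart muscle dies, leukocytes clear the debris, and fibroblasts lay down a collagen scar while new capillaries grow at its border. Donor and suture met in the S-DTMS library only, so the group asks which genes stood higher there than in each other library. The rule barred only the larger rises of SNAP over MI and set no limit on DTMS against MI. A member could therefore also be higher than MI with the drug alone or with the suture alone.

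The files list genes by Ensembl identifier and do not pair them with names. The gene table of the reference matched 0 of the 20646 identifiers, so no names are given. The members are therefore described by their levels, their patterns over the libraries and their lengths, and identifiers are given for 4 of them. The 48 lists of marker and process genes written down for heart and its neighbouring tissues could not be looked up, and neither cell type markers nor promoter sequences were analysed here.

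Depth was nearly equal. The fragments behind the FPKM values could be worked out, and the library totals ran from 16731024 to 17379225, which is 1.04 times the lowest. The 10 most abundant genes of a library took 13.5% of the total in S-DTMS and 16.9% to 23.2% in the others. The median difference of all 13769 genes that reached an FPKM of 1 in any library was 0.03 for S-DTMS minus Normal, 0.15 for S-DTMS minus MI, 0.31 for S-DTMS minus SNAP and 0.25 for S-DTMS minus DTMS. Most genes thus shared a small upward shift in S-DTMS against MI, SNAP and DTMS, which is part of the members' differences from those libraries. Against Normal, the highest other library for 128 members, the shift was slight.

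The members were mostly moderately expressed, and their medians in the 4 other libraries lay close together. Their median FPKM was 9.46 in Normal, 7.65 in MI, 7.70 in SNAP, 8.36 in DTMS and 33.0 in S-DTMS. The quartiles were 13.6 and 71.3 in S-DTMS and 4.23 and 27.1 in Normal. Their fragments made up 4.32% of the S-DTMS library, against 1.43% of Normal, 1.03% of MI, 1.08% of SNAP and 1.11% of DTMS. The shares of the 4 other libraries lay close together, and that of S-DTMS was set off from them, as the rule required. Only 1 member was listed at 0 in Normal and 1 in MI, and 4 members were below an FPKM of 1 in all 4 other libraries. Most members were thus detected everywhere and stood higher in S-DTMS, and few were near absent elsewhere.

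**Figure D1:**
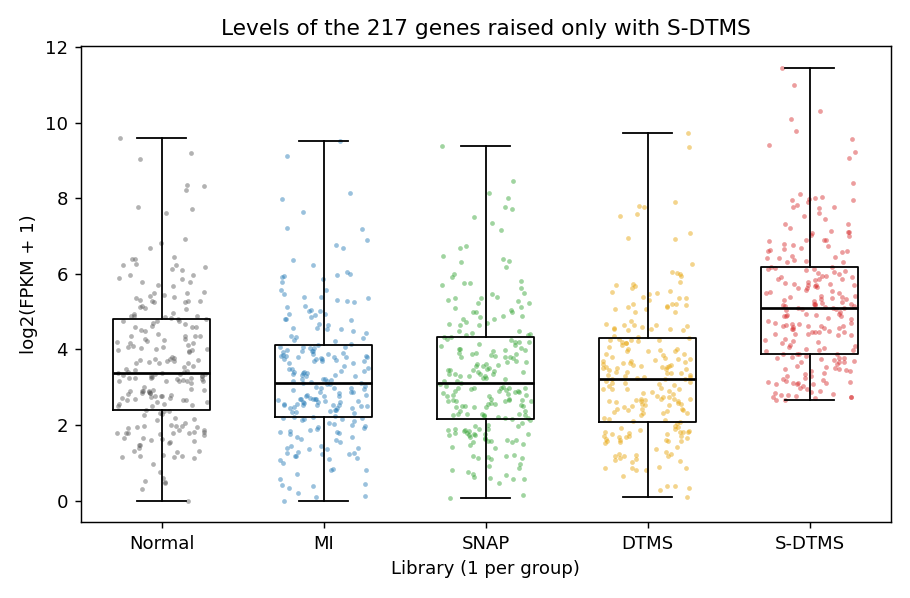
Levels of the 217 members in each library, as log2(FPKM + 1). Each point is a gene, boxes span the quartiles with the median as a bar, and whiskers reach the lowest and the highest member. The median FPKM was 33.0 in S-DTMS and between 7.65 and 9.46 in the other libraries.

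The size of the step differed little among most members. The gap between S-DTMS and the highest of the other libraries had a median of 1.30 on the log2(FPKM + 1) scale, with quartiles of 1.12 and 1.57. In plain FPKM, S-DTMS was 2.62 times the highest other library at the median, with quartiles of 2.33 and 3.30 and a range from 2.02 to 31.1 times. A gap of 1.5 or more was found for 65 members, one of 2 or more for 19, and one of 3 or more for 2. Most of the group therefore sat near the limit, with a short tail of far larger steps.

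The largest step was that of ENSRNOG00000006314. Its FPKM was 1.32 in Normal, 1.26 in MI, 0.368 in SNAP, 0.765 in DTMS and 41.0 in S-DTMS. The S-DTMS value rested on 1857 fragments, with an exact Poisson 95% interval from 39.2 to 42.9, and the highest other value on 60 fragments, with an interval from 1.01 to 1.70. These intervals cover counting error only. The gap to Normal, the highest other library, was 4.18. The gene was thus low in uninjured, infarcted and singly treated hearts alike, and abundant in the S-DTMS library alone.

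Behind it came a member with an FPKM between 4.96 and 8.87 in the other libraries and 87.2 in S-DTMS, a gap of 3.16. The member next in order had 4.13 to 8.55 in the others and 69.4 in S-DTMS, a gap of 2.88. Among the 15 members with the largest gaps, which ran down to 2.14, the S-DTMS FPKM reached from 7.98 to 1091. Large gaps were thus found at low and at high levels. Only 1 of these 15 was also among the 15 members of highest S-DTMS FPKM, with 193.6 in Normal, 101.7 in MI, 160.6 in SNAP, 185.1 in DTMS and 1091 in S-DTMS.

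**Figure D2:**
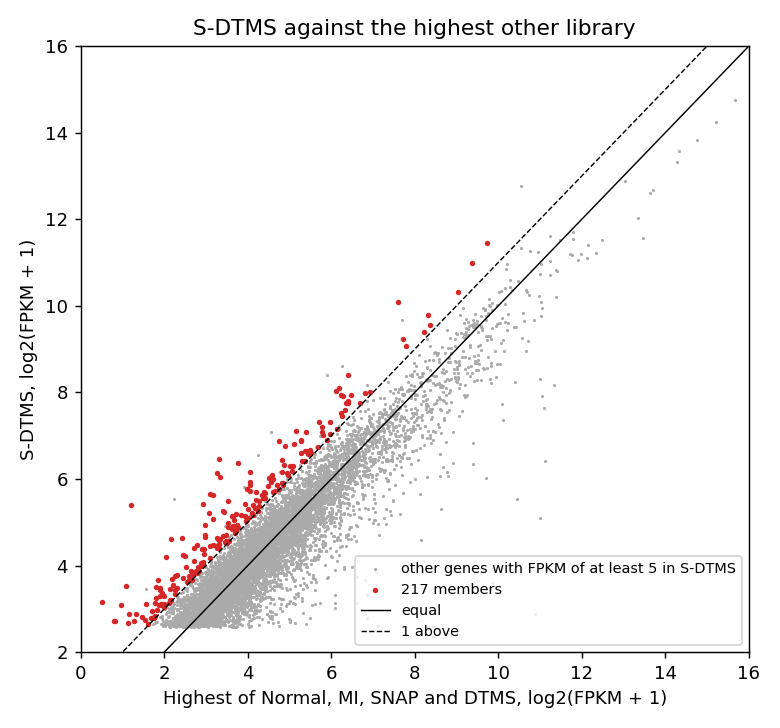
S-DTMS against the highest of Normal, MI, SNAP and DTMS, both as log2(FPKM + 1), for the 8778 genes that reached an FPKM of 5 in S-DTMS. Members are red, the solid line marks equal values and the dashed line a gap of 1, and grey points above the dashed line are the 25 genes left out because SNAP was at least 1 above MI.

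The most abundant member was ENSRNOG00000018454. Its FPKM was 770.8 in Normal, 735.5 in MI, 351.5 in SNAP, 851.1 in DTMS and 2810 in S-DTMS, where it held 74453 fragments. Its SNAP value was the lowest of the 5 and lay 1.06 below MI on the log2 scale, so the drug alone and the drug with the suture stood at opposite ends of its range. The member next in abundance was flat outside S-DTMS, with 555.9 to 661.1 in the other libraries and 2039 in S-DTMS. The third had 520.5 in Normal and 218.2 to 251.0 in the 3 other libraries of infarcted heart, and reached 1271 in S-DTMS. The 10 members with the most fragments held 39.1% of the fragments of the group in S-DTMS.

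By level, 41 members had an S-DTMS FPKM of 100 or more, 142 one of 10 to under 100, and 34 one under 10. These were 5.23% of the 784 genes, 2.53% of the 5617 genes and 1.43% of the 2377 genes at those levels. The levels were those of S-DTMS, on which the rule chose, and the pseudocount of 1 damps differences of low genes. The shares are therefore not on an equal footing. The median gap was 1.41, 1.28 and 1.23 in the same order.

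Which of the libraries set the limit differed between members. The Normal library was the highest of the other 4 for 128 members, SNAP for 35, DTMS for 28 and MI for 26. For Normal this is 59.0% of the members, beside 56.6% of the 8778 genes. The share was 16.1% beside 10.3% for SNAP, 12.9% beside 14.1% for DTMS and 12.0% beside 19.0% for MI. MI was the lowest of the other 4 for 91 members, or 41.9%, beside 20.8% of the 8778 genes. SNAP was the lowest for 25.3%, beside 44.2%, and these shares include the part of the rule that barred members with SNAP at least 1 above MI.

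The condition on Normal was the one that narrowed the group most. Among the 8778 genes, S-DTMS was at least 1 above Normal for 444 or 5.06%, above MI for 940 or 10.7%, above SNAP for 1062 or 12.1%, and above DTMS for 991 or 11.3%. All 217 members pass each of these by construction. Without the condition on Normal the rule took 469 genes, of which the members were 46.3%. Without the condition on DTMS it took 231, without that on MI 244, and without that on SNAP 249. The members are thus the genes for which S-DTMS passed the uninjured heart too, not only the infarcted ones.

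The difference of MI and Normal was not itself a condition, but the rule set limits on both libraries and on SNAP against MI, so the shares of members that follow are descriptions shaped in part by the choice. MI lay lower than Normal for 171 members, or 78.8%, beside 69.4% of the 8778 genes, and higher for 46, with a median difference of -0.34 on the log2(FPKM + 1) scale, from a median FPKM of 9.46 to one of 7.65. Over all 13769 genes the median difference was -0.12, and over the 8778 genes -0.15. MI was at least 1 below Normal for 28 members, or 12.9%, beside a background of 4.74% of the 13769 genes and 4.17% of the 8778 genes. It was at least 1 above Normal for 8 members, or 3.69%, beside 2.22% and 1.2% of the same genes. Relative to the shift of all genes, 19 members were lower by at least 1, which is 8.76% beside 3.05% of the 8778 genes, and 8 were higher, which is 3.69% beside 1.46%. Differences of 1 between MI and Normal thus made up a larger share among members in both directions, and lower values outnumbered higher ones. The 8778 genes were filtered on S-DTMS, where members are high by the rule. Their median FPKM was 16.5 in Normal and 14.4 in MI, above that of the members. For the 13769 genes it was 8.47 and 7.44. The shares were not adjusted for level. With values scaled by the median of ratios, 16 of the 156 genes that met the rule had MI at least 1 below Normal, which is 10.3% beside 3.06% of the 8359 genes that reached an FPKM of 5 in S-DTMS on that scale.

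The members varied more among the other 4 libraries altogether. The span from the lowest to the highest of the 4 had a median of 0.68, beside 0.48 for the 8778 genes. Members were lower in these libraries, with median FPKM from 7.65 to 9.46, beside 13.2 to 16.5 for the 8778 genes. The spans were not adjusted for level, so the wider span cannot be told apart from lower counts. It stayed under 1 for 166 members, or 76.5%, beside 86.9% of the 8778 genes. It reached 2 for 7 members, a count with no background share beside it. For 174 members, or 80.2%, none of MI minus Normal, SNAP minus MI and DTMS minus MI reached 1 in either direction, beside 90.8% of the 8778 genes. The upper side of SNAP minus MI was fixed by the rule.

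The 28 members with MI at least 1 below Normal had a median FPKM of 24.7 in Normal, 6.43 in MI, 9.77 in SNAP, 10.9 in DTMS and 65.3 in S-DTMS. MI was low in this subset by choice, and S-DTMS had to be at least 1 above Normal, with a median of 1.29 here. For the same 28 members, SNAP minus Normal had a median of -0.86 and DTMS minus Normal one of -1.12. For 16 of the 28, DTMS was also at least 1 below Normal, for 12 SNAP was, and for 11 both were. These counts have no background share beside them, and choosing MI well below Normal favours a high Normal. The greatest difference was that of ENSRNOG00000029980, whose FPKM was 30.1 in Normal, 3.99 in MI, 6.99 in SNAP, 11.2 in DTMS and 66.9 in S-DTMS. MI was lower than Normal by 2.64 on the log2 scale, with 176 fragments in MI and 1354 in Normal. DTMS lay 1.29 above MI for this gene and still below Normal, so that the order ran from MI over SNAP, DTMS and Normal to S-DTMS. Another member had 44.1 in Normal, 6.28 to 10.1 in MI, SNAP and DTMS, and 100.9 in S-DTMS.

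The 8 members with MI at least 1 above Normal had a median FPKM of 1.79 in Normal, 5.88 in MI, 3.69 in SNAP, 4.04 in DTMS and 27.4 in S-DTMS. S-DTMS minus Normal had a median of 3.31 on the log2 scale here, and had to be at least 2, since S-DTMS lay at least 1 above MI in every member. In the member with the greatest difference, the FPKM was 2.49 in Normal, 9.64 in MI, 3.54 in SNAP, 2.83 in DTMS and 37.2 in S-DTMS. SNAP and DTMS were both at least 1 below MI for this member, so single treatments stood near Normal while the combination stood highest. It was the only one of the 8 with that pattern, and 2 of all members had SNAP and DTMS both at least 1 below MI. No background share stands beside these counts.

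**Figure D3:**
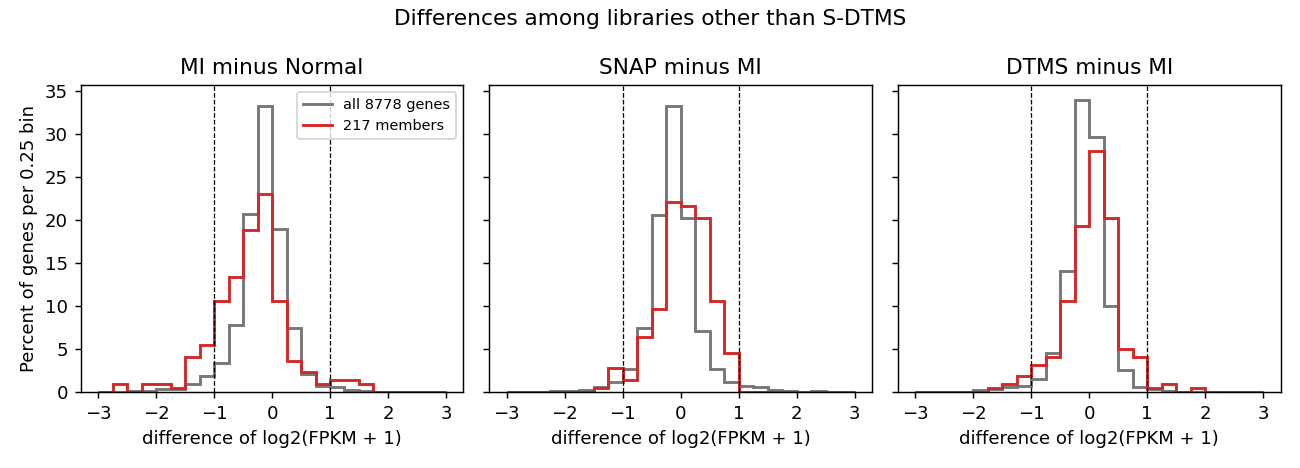
Differences among the libraries other than S-DTMS, on log2(FPKM + 1), as percent of genes per bin of 0.25, for the 217 members in red and for all 8778 genes that reached an FPKM of 5 in S-DTMS in grey, between -3 and 3. The dashed lines mark -1 and 1, and the MI library enters all 3 panels. MI minus Normal had a median of -0.34 among members and -0.15 among the 8778 genes.

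With the suture but without the drug, few members differed from MI by 1. DTMS minus MI had a median of 0.08 among members and -0.04 among the 8778 genes. DTMS was at least 1 above MI for 4 members, or 1.84%, beside 1.46% of the 13769 genes and 0.729% of the 8778 genes. It was at least 1 below MI for 7 members, or 3.23%, beside 3.19% and 1.99%. These shares rest on few genes. They lay near the background of the 13769 genes and above that of the 8778 genes, the set that holds all members. That set was filtered on S-DTMS, where members are high by the rule, and the shares were not adjusted for level. Relative to the shift of all genes, DTMS was at least 1 above MI for 5 members, or 2.30%, beside 0.797% of the 8778 genes. On that scale it was at least 1 below MI for 6 members, or 2.76%, beside 1.82%. The lowest value against MI was that of ENSRNOG00000011824, with an FPKM of 7.98 in Normal, 5.10 in MI, 1.65 in SNAP, 0.859 in DTMS and 48.6 in S-DTMS. DTMS was lower than MI by 1.71 on the log2 scale, on 20 and 119 fragments, and SNAP was also at least 1 below MI. Either treatment alone was thus below the untreated infarct for this gene, and S-DTMS was above it by 3.02. The highest value of DTMS minus MI, 1.89, rested on 0 fragments in MI and belonged to the member with the fewest fragments in S-DTMS, which were 10.

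The drug without the suture was limited by the rule on its upper side, so without adjustment for the shift of all genes only lower values are counted. SNAP was at least 1 below MI for 7 members, or 3.23%, beside 4.01% of the 13769 genes and 2.4% of the 8778 genes. Relative to the shift of all genes, which was -0.14, it was so for 4 members, or 1.84%, beside 1.69% of the 8778 genes. On that relative scale SNAP was at least 1 above MI for 7 members, or 3.23%, beside 2.65% of the 8778 genes. The rule limits this upper side in part. SNAP minus MI had a median of 0.07 among members, beside -0.13 for the 8778 genes, and its highest value, 0.96, lay just under the limit. All 3 contrasts share the MI library, so their values are not independent of each other.

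The 25 genes that met every condition but the last had SNAP at least 1 above MI and were left out. Their median FPKM was 20.2 in Normal, 8.25 in MI, 26.1 in SNAP, 9.32 in DTMS and 78.5 in S-DTMS. SNAP was the highest of the other 4 for 18 of them, and MI was at least 1 below Normal for 14. Over the 8778 genes these shares were 10.3% and 4.17%. Taking genes with SNAP at least 1 above MI favours a high SNAP and a low MI, so both counts are shaped by the choice. Of the 242 genes with S-DTMS at least 1 above the other 4, 217 thus had SNAP less than 1 above MI, and 25 had not. Both numbers depend on where the limit was drawn. Relative to the shift of all genes, SNAP was at least 1 above MI for 2.65% of the 8778 genes. That shift was downward, so the share without adjustment is no higher. Genes with SNAP at least 1 above MI were thus a larger share of the 242 than of the 8778. The 242 were chosen with S-DTMS at least 1 above MI, which favours a low MI, so this share is shaped by the choice too. Whether the height in S-DTMS needed the combination was not tested.

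Around the limits, values ran on without a break. The 3 members with the smallest gaps had 1.00, 1.01 and 1.01, and the 3 genes just outside had 0.9996, 0.9993 and 0.9987. The lowest S-DTMS FPKM among members was 5.28, and the highest among genes that failed by this limit alone was 4.95. The highest SNAP minus MI among members was 0.96, and the lowest among genes that failed by it alone was 1.06.

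Counting error was small for most members. The median member had 1350 fragments in S-DTMS and between 370 and 440 in the other libraries, and the fewest in S-DTMS were 10. For 209 of 217 members the exact Poisson 95% interval of S-DTMS lay above the intervals of all 4 other libraries. The members were chosen for a gap of at least 1 in these same values, so this separation follows largely from the choice. For 130 members the interval's lower end was still at least 1 above the others' highest upper end on the log2 scale, so for the remaining members the gap of 1 was within reach of counting error. Fewer than 100 fragments in S-DTMS were found for 20 members, and fewer than 20 in the highest other library for 17.

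Gene lengths of the members overlapped widely with those of other genes, with a larger share of very short ones. The median length worked out from the values was 2271 bases, with quartiles of 1396 and 3458, beside 2146 bases with quartiles of 1390 and 3380 for the 8778 genes. Lengths under 200 bases were found for 12 members, or 5.53%, beside 151 or 1.72% of the 8778 genes. Of these 12 members, 11 had fewer than 100 fragments in S-DTMS, and the exception had 869 fragments on 85 bases with an FPKM of 600.04 in S-DTMS and 148.6 to 211.0 elsewhere. A length can come out too short where the fragments of a gene share a divisor.

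The scaling of the libraries changed the membership of many genes near the limits. With values divided by median-of-ratios factors, which bring each library to the same middle, 156 genes met the rule and all 156 were members. The 61 members lost had a median gap of 1.09 and a highest gap of 1.93 before scaling, and the 156 kept a median of 1.40. Of the 61, 54 were lost because the gap fell under 1 and had gaps of at most 1.34 before scaling, 4 because S-DTMS fell under an FPKM of 5, and 3 because SNAP came to lie at least 1 above MI. Of the 41 members with an S-DTMS FPKM of 100 or more, 33 were kept, of the 142 between 10 and 100, 103, and of the 34 under 10, 20. Of the 28 members with MI at least 1 below Normal, 24 stayed in the group, and of the 8 with MI at least 1 above Normal, 7. Relative to the median difference of all genes, 169 genes met the rule, again all of them members.

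A library that stood alone at the top was not particular to S-DTMS, but the number of genes was highest there. Genes that reached an FPKM of 5 in a library and lay at least 1 above each of the other 4 there numbered 242 for S-DTMS without the condition on SNAP and MI, 90 for Normal, 42 for MI, 20 for SNAP and 7 for DTMS. With median-of-ratios scaling they numbered 173, 67, 37, 31 and 10 in the same order. With 1 library per group, whether the higher number went with the treatment or with the rat or tissue piece cannot be told apart.

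**Figure D4:**
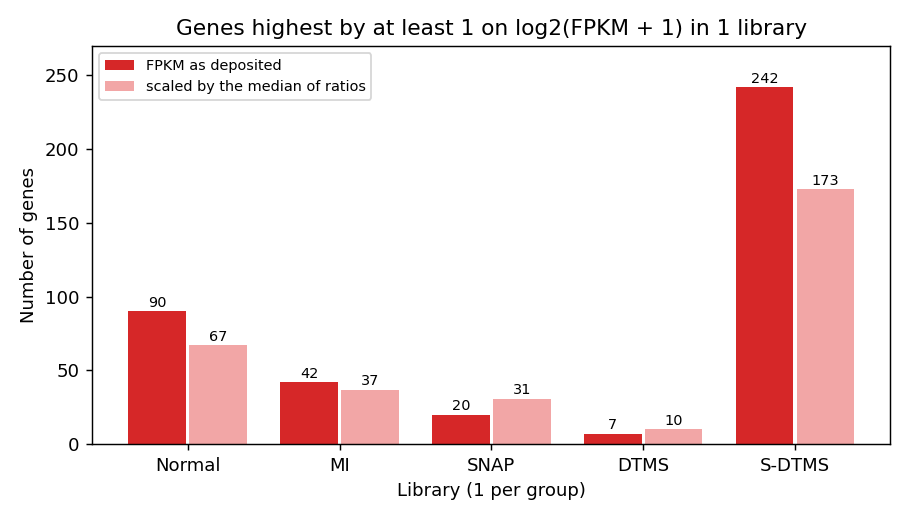
Number of genes that reached an FPKM of 5 in a library and lay at least 1 above each of the other 4 on log2(FPKM + 1), per library, as deposited and with median-of-ratios scaling. S-DTMS had 242 and 173 genes, and Normal, the next, 90 and 67.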

How the data were processed

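Left ventricular wall was sequenced on an Illumina NovaSeq instrument, 1 library per group. The authors deposited FPKM values under rat Ensembl gene identifiers. The submitters' processing notes name HTSeq and the mouse build mm9; the aligner and the annotation are not given in the sources used here. Each column was given its group from its sample's label, and 0 columns belonged to no sample.

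The fragments behind the FPKM were worked out from whole multiples of a single step per gene, with library totals for which lengths became whole for 97.6% of 2719 genes. All 20304 genes above 0 received fragments. The calculation was tested on simulated data. Differences are of log2(FPKM + 1). No p-value was computed, since each group has 1 library, and counts of members are descriptions. Exact Poisson intervals of 95% cover counting error only.

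The members, gene lists and tests were chosen with earlier results of these data known. Members to describe were taken by largest gap, highest S-DTMS FPKM, nearness to a limit, and largest rise and fall in MI against Normal and DTMS against MI; without names, only 4 identifiers are printed. The parts of this rule on gene lists, gene families and neighbouring genes were not run, nor were the gene lists. There were 6 alternatives, and 3 were added after seeing the data. Calculations ran in Python 3.11.15 with pandas 2.3.3 and NumPy 2.4.6, intervals came from SciPy 1.17.1, and plots from Matplotlib 3.10.9.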

Additional observations from a re-analysis of the deposited data

How the results depend on the processing

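For 7 results, 63 values were recomputed under 9 settings, and 43 stayed within 1.5 times the reported value. The number of members was 345 as TPM and 19 at a log2 limit of 2, where the median gap was 2.46. Elsewhere it ran from 156 with the median of ratios to 288 with an FPKM limit of 1. Members with MI at least 1 below Normal, reported as 28, numbered 16 with the median of ratios, 15 relative to the median of all genes and 2 at the limit of 2. Those with MI above Normal, reported as 8, numbered 1 at the limit of 2. Members with DTMS above MI, reported as 4, numbered 8 with a pseudocount of 0.1, 2 with an FPKM limit of 10, 8 as TPM, 0 at the limit of 2 and 1 with at least 100 fragments. Members with DTMS below MI, reported as 7, numbered 17 with a pseudocount of 0.1, 13 as TPM and 1 at the limit of 2. Members with SNAP below MI, reported as 7, numbered 13 with a pseudocount of 0.1, 3 with the median of ratios, 11 as TPM, 2 at the limit of 2 and 4 relative to the median. The cause was not tested. No paired analysis was possible because no group held more than 1 library. The gene lists were not run for want of names.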

Other observations

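Genes that stood lowest in S-DTMS alone were fewer than those that stood highest. With an FPKM of 5 reached in all the other 4 libraries and each of these at least 1 above S-DTMS on log2(FPKM + 1), 102 genes were found, and 148 with median-of-ratios scaling, beside 242 and 173 genes for which S-DTMS alone was highest. The other libraries stood alone at the bottom for 6 genes (Normal), 14 genes (MI), 11 genes (SNAP) and 9 genes (DTMS), and for 9, 13, 5 and 8 genes after scaling. The 2 counts for S-DTMS use different filters, since an FPKM of at least 5 was asked of 1 library for the highest genes and of 4 for the lowest.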
